A study of Mus musculus with 12 samples.

Results

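Repressive chromatin at imprinted regions and at retroelements depends on a small set of proteins, and 10 genes that encode such proteins were followed here: Zfp57, Zfp445, Zfp809, Trim28, Setdb1, Ehmt1, Ehmt2, Smchd1, Hells and Morc3. They were chosen by name. Every row of the deposited tables whose gene symbol equalled 1 of these names was taken, and all 10 were present among the 54446 genes listed. Expression came from RNA sequencing of mouse embryonic stem (ES) cells after removal of ribosomal RNA, in 12 libraries that form 6 groups of 2. The labels name 2 lines, E14 KH and E14 DNMT3ABKO, called KH and DNMT3ABKO below. The first is wild type and the second lacks functional Dnmt3a and Dnmt3b, the enzymes of de novo DNA methylation. Each line was collected untreated (0 h) and after 72 h and 144 h with the mTOR kinase inhibitor Ink128 (mTORi), a treatment that slows ES cells to a pause and serves as a model of embryonic diapause. Each genotype is represented by 1 line, so a difference between the lines cannot be told apart from other differences between those 2 cultures. The labels do not say what separates the replicates. The study's reporting summary describes its experiments in general as repeated independently, with the time points of a replicate handled side by side, and does not speak of these libraries by name, so p-values are read here as measuring the spread between these libraries. The study's methods place a wild-type line called KH2 and the Dnmt3a/b knockout on a layer of growth-arrested fibroblasts (feeders), grow E14 lines without them, and describe a sort for viable cells. The label E14 KH matches neither name fully, and the fibroblast markers given below were present in both lines. Values are TPM, a length-corrected share of the RNA in a library that sums to 1000000, and their read depth is unknown. The study normalized its RNA sequencing to external spike-in RNA. It reported a global repression of the transcriptome under mTORi, with global transcription also decreased in the Dnmt3a/b knockout. Higher, lower, gain and fall therefore refer below to the share of RNA and not to the amount per cell.

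KRAB zinc finger proteins read a DNA sequence and recruit TRIM28 (KAP1), a corepressor that brings the methyltransferase SETDB1, which places the repressive mark H3K9me3. ZFP57 and ZFP445 bind methylated imprinting control regions and keep them methylated through the wave of demethylation in the early embryo, and ZFP809 binds the primer binding site of murine leukaemia proviruses. EHMT1 (GLP) and EHMT2 (G9a) form a dimer that places H3K9me2 and supports silencing of endogenous retroviruses in ES cells. SMCHD1 acts on the inactive X chromosome and on imprinted clusters, HELLS (LSH) is a remodeler needed for DNA methylation of repeats, and MORC3 is an ATPase that silences retroelements in ES cells.

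The 250 bases before the RefSeq start site (GRCm38.p6, 5′ to 3′ on the gene's strand) are given for the 4 members called higher in both lines after 144 h with mTORi, and for Ehmt2, the only member called lower in both. Capitals mark CG dinucleotides, the target of the enzymes that DNMT3ABKO cells lack. The windows are chr17:37000913-37001162 on the plus strand for Zfp57, chr9:122866007-122866256 on the minus strand for Zfp445, chr9:22225462-22225711 on the plus strand for Zfp809, chr16:93831871-93832120 on the plus strand for Morc3 and chr17:34898224-34898473 on the plus strand for Ehmt2.
Zfp57: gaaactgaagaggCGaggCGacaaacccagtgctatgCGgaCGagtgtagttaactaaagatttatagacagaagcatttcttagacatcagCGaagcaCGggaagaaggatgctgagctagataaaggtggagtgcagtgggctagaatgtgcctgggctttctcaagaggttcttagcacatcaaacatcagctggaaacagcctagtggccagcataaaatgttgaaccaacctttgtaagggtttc
Zfp445: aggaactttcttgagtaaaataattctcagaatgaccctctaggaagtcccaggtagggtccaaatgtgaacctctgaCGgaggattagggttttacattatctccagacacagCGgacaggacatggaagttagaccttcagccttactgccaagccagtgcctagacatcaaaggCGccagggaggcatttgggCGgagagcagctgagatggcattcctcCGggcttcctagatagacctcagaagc
Zfp809: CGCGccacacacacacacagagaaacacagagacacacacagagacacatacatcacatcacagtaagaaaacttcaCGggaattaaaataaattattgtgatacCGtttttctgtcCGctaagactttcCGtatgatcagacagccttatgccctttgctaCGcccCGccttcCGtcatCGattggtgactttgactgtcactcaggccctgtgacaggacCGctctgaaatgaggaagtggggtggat
Morc3: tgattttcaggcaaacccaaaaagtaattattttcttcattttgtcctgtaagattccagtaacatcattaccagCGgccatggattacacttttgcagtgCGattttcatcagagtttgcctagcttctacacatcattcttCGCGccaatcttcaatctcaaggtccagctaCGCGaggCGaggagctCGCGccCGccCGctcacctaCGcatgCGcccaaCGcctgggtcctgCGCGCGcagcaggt
Ehmt2: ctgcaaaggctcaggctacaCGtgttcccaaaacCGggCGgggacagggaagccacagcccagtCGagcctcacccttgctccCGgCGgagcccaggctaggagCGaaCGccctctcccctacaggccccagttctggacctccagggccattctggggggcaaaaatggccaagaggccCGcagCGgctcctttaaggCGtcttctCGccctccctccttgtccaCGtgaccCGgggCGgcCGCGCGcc

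These windows differed in CG content. Zfp57 had 6 CG dinucleotides and Zfp445 had 5, close to the median of 6 over 32851 such windows, whereas Zfp809 had 11, Morc3 had 17 and Ehmt2 had 18. The other members had 13 (Setdb1), 17 (Trim28), 26 (Ehmt1), 28 (Hells) and 33 (Smchd1). The E-box CACGTG, which reads the same on both strands, occurred 2 times in the Ehmt2 window and in no other member's, and 6.02% of all windows held it. The ZFP57 motif TGCCGC, searched on both strands, occurred among the members only in the Trim28 window, against 8.68% of all windows. For Trim28 the RefSeq start lies 25038 bases inside the gene span that the files list. These are letter matches and carry no measurement of binding. The files list the genes on mm10 at chr17:37001163-37010635 (Zfp57), chr9:122844529-122866006 (Zfp445), chr9:22225714-22243354 (Zfp809), chr16:93832121-93876073 (Morc3) and chr17:34898469-34914052 (Ehmt2). Whether the quantification used strand is not given in the sources used here, and Morc3, Setdb1, Smchd1, Ehmt1, Zfp809, Zfp445 and Trim28 overlap annotated genes, so reads of these cannot be fully told apart from reads of their partners.

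The line labels were checked first. Dnmt3b was at 255 and 258 TPM in untreated KH libraries and at 26.2 and 27.5 TPM in untreated DNMT3ABKO libraries. Dnmt3b in DNMT3ABKO was 10.5%, 14.1% and 8.90% of its mean in KH at 0 h, 72 h and 144 h, and Dnmt3a was 16.8%, 20.2% and 17.6%, so RNA of both genes was strongly lower without being absent. Replicates correlated with r of 0.985 in untreated DNMT3ABKO cells and of 0.993 to 0.996 in the other groups, which makes comparisons with untreated DNMT3ABKO cells the least precise. A list of 25 fibroblast markers summed to between 3355 and 3670 TPM in untreated KH libraries, fell to between 1528 and 1563 TPM at 72 h and to between 620 and 713 TPM at 144 h. DNMT3ABKO libraries went from between 3624 and 3958 TPM to between 473 and 493 TPM at 144 h. All 25 had a mean of at least 1 TPM in the untreated cells of both lines, and 23 and 22 of them still did at 144 h in KH and DNMT3ABKO. Col1a1, a defining gene of fibroblasts, went from a mean of 369 TPM to 9.67 TPM in KH and from 439.6 TPM to 10.3 TPM in DNMT3ABKO. Over the same time the sum of 12 ES cell markers rose from between 4637 and 4944 TPM to between 7155 and 7286 TPM in KH. The single markers did not move alike. Their log2 fold changes against untreated cells ranged from 0.01 to 1.06 at 144 h in KH and from -0.49 to 1.70 at 72 h in DNMT3ABKO. In bulk RNA, fewer feeder cells and less RNA per feeder cell cannot be told apart, and the part of this shift in the values below was not tested beyond a rescaling of each library to its ES markers, given beside the results.

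Levels of the 10 genes spanned a wide range, and TPM is corrected for length, so levels may be compared between genes. In untreated KH cells Trim28 was highest, with a mean of 1179 TPM, followed by Zfp57 (168 TPM), Hells (145 TPM), Ehmt2 (91.3 TPM), Morc3 (67.0 TPM), Setdb1 (62.1 TPM), Zfp445 (41.5 TPM), Ehmt1 (38.3 TPM), Zfp809 (36.9 TPM) and Smchd1 (31.9 TPM). Morc3 and Setdb1 overlapped in their replicates, as did Ehmt1 with Zfp809 and Zfp809 with Smchd1, so the order within these pairs is not resolved. At 144 h Trim28 (1174 TPM) and Zfp57 (378 TPM) still led in KH, while Morc3 (105 TPM) and Zfp445 (75.5 TPM) stood above Ehmt2 (66.5 TPM). The ratio of the highest to the lowest group mean was 3.09 for Zfp57, 2.74 for Zfp809, 2.22 for Zfp445, 1.81 for Morc3 and 1.74 for Ehmt2, and it was smallest for Trim28, at 1.11.

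**Figure D1:**
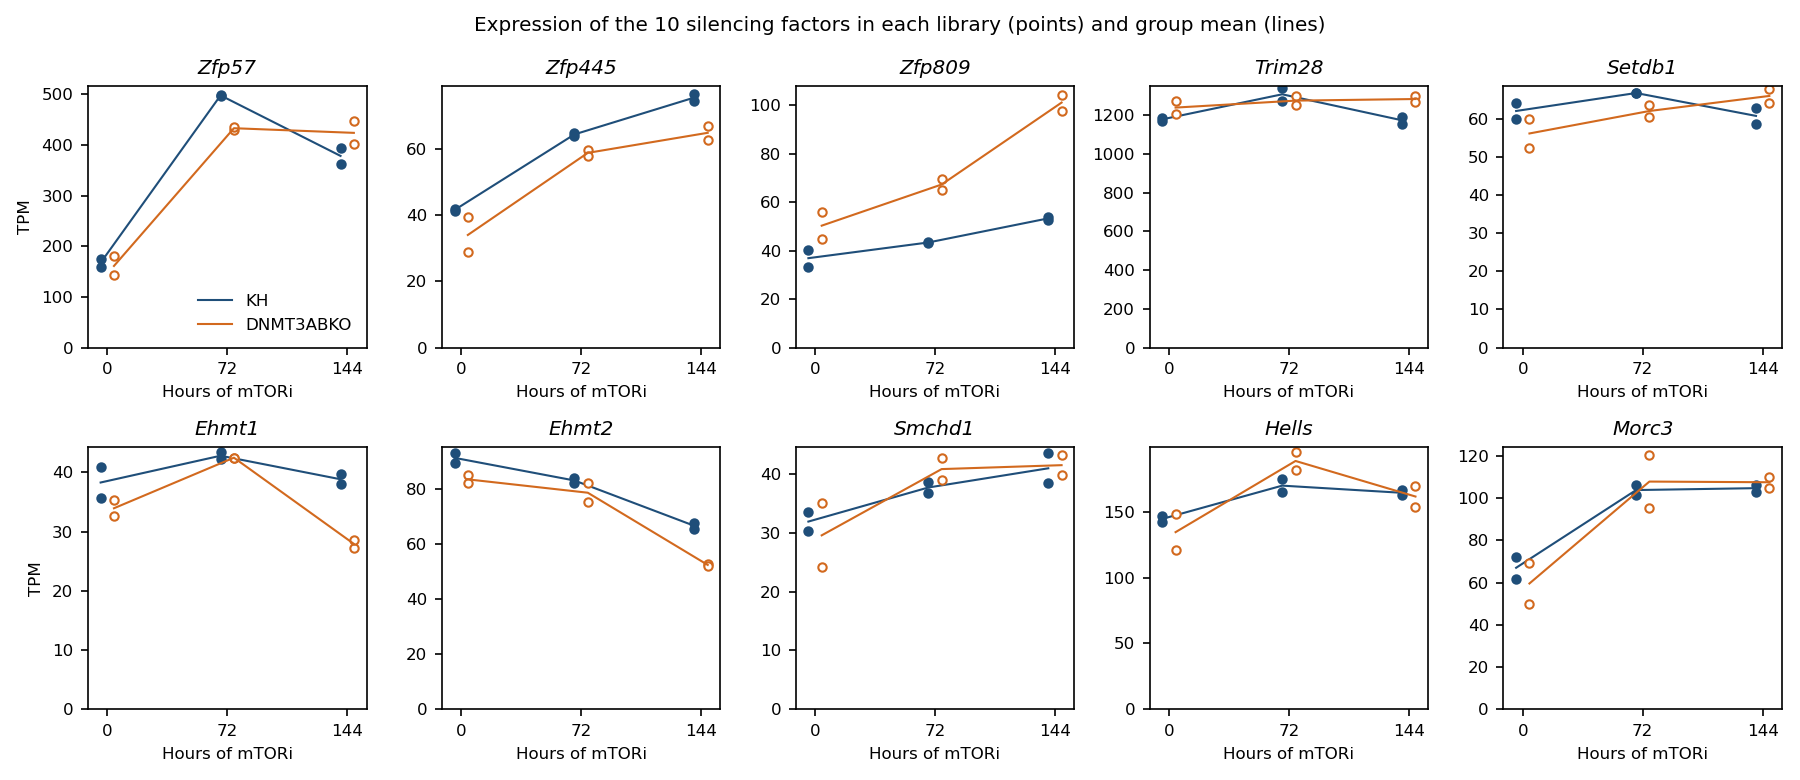
TPM (vertical axes, from 0) of each silencing factor against hours of mTORi, with 1 point per library (filled KH, open DNMT3ABKO) and lines through group means of 2 libraries. Zfp57 sits between 142 and 179.9 TPM in the 4 untreated libraries and between 363 and 499 TPM in the 8 treated ones, Zfp809 separates the lines at each time, Ehmt2 is lowest at 144 h, and Trim28 stays between 1155 and 1342 TPM.

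On the TPM as deposited, Zfp57 and Zfp445 were higher at both times under mTORi in both lines, and Zfp809 was higher except at 72 h in KH, where it was not called. Zfp57 was at 160.0 and 175 TPM in untreated KH libraries, at 499 and 497 TPM after 72 h and at 363 and 394 TPM after 144 h. In DNMT3ABKO libraries it was at 142 and 179.9 TPM, then at 430.5 and 436 TPM, then at 401 and 447 TPM. No treated library of either line overlapped an untreated one. The mean in KH was 2.97 times the untreated mean at 72 h (log2 fold change 1.57, SE 0.10, adjusted p = 3.52e-06, limma on log2(TPM + 1), Benjamini-Hochberg over 15727 genes, as for all adjusted p below) and 2.26 times at 144 h (1.17, adjusted p = 1.22e-05). In DNMT3ABKO it was 2.69 times at 72 h (1.43, adjusted p = 3.19e-06) and 2.63 times at 144 h (1.40, adjusted p = 2.16e-06). Between 72 h and 144 h Zfp57 fell by 0.40 on the log2 scale in KH (adjusted p = 0.0223), a call that was lost without any 1 of the 4 libraries compared (adjusted p from 0.0559 to 0.148), and in DNMT3ABKO the difference was -0.03 (95% interval -0.27 to 0.20). Ordered by group mean, Zfp57 was highest in KH at 72 h, then in DNMT3ABKO at 72 h and 144 h, whose replicates overlapped, then in KH at 144 h, and lowest in both untreated groups, which overlapped as well.

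Zfp445, the second reader of imprints, was at 41.1 and 41.9 TPM in untreated KH, at 64.0 and 64.7 TPM at 72 h and at 76.5 and 74.4 TPM at 144 h. The corresponding values in DNMT3ABKO were 28.7 and 39.3 TPM, then 59.6 and 57.9 TPM, then 62.7 and 66.9 TPM. Both lines moved in the same order, with each treated library above each untreated one. The log2 fold changes were 0.62 at 72 h (SE 0.12, adjusted p = 0.00173) and 0.85 at 144 h (adjusted p = 0.0002) in KH, and 0.79 (adjusted p = 0.000284) and 0.93 (adjusted p = 7.82e-05) in DNMT3ABKO.

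Zfp809, the reader of proviral primer binding sites, separated the lines as well as the times. It was at 33.4 and 40.4 TPM in untreated KH, at 43.0 and 43.8 TPM at 72 h and at 54.0 and 52.7 TPM at 144 h. DNMT3ABKO libraries had 44.8 and 55.9 TPM, then 69.4 and 65.2 TPM, then 97.9 and 104 TPM, so that at each time both exceeded both KH libraries. In KH the gain was called at 144 h (log2 fold change 0.53, SE 0.11, adjusted p = 0.00301) and not at 72 h (0.23, adjusted p = 0.111). In DNMT3ABKO it was 0.42 at 72 h (adjusted p = 0.00936) and 1.00 at 144 h (adjusted p = 3.66e-05), with a further gain of 0.58 from 72 h to 144 h (adjusted p = 0.00355). The 72 h call in DNMT3ABKO was lost without untreated replicate 1 (0.26, adjusted p = 0.0507) and without 72 h replicate 1 (0.38, adjusted p = 0.0626).

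The corepressor and its methyltransferase kept nearly constant shares. Trim28 was at 1171 and 1187 TPM in untreated KH, at 1342 and 1275 TPM at 72 h and at 1155 and 1194 TPM at 144 h. DNMT3ABKO libraries held 1273 and 1207 TPM, then 1253 and 1299 TPM, then 1298 and 1271 TPM. No comparison called Trim28. Its largest values were 0.15 at 72 h in KH (95% interval 0.02 to 0.28, adjusted p = 0.064) and -0.16 from 72 h to 144 h in KH (-0.29 to -0.02, adjusted p = 0.0928). Setdb1 ranged from 52.5 to 67.9 TPM over the 12 libraries. It was called once, at 144 h in DNMT3ABKO, where 64.2 and 67.9 TPM compared with 52.5 and 59.9 TPM untreated (log2 fold change 0.23, adjusted p = 0.0276). That call was lost without untreated replicate 1 (0.14, adjusted p = 0.133), without 144 h replicate 1 (0.27, adjusted p = 0.0519) and without 144 h replicate 2 (0.19, adjusted p = 0.152).

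Ehmt2 was lower at 144 h in both lines, and Ehmt1 in DNMT3ABKO. Ehmt2, which encodes G9a, was at 89.6 and 93.0 TPM in untreated KH, at 84.0 and 82.0 TPM at 72 h and at 65.4 and 67.7 TPM at 144 h. In DNMT3ABKO it was at 84.9 and 82.0 TPM, then at 75.1 and 82.1 TPM, then at 52.9 and 51.9 TPM. The 144 h libraries of each line lay below all others of that line. Ehmt2 at 144 h was 72.9% of the untreated mean in KH (log2 fold change -0.45, SE 0.06, adjusted p = 0.000251) and 62.8% in DNMT3ABKO (-0.66, adjusted p = 1.25e-05). From 72 h to 144 h the change was -0.31 in KH (adjusted p = 0.00633) and -0.58 in DNMT3ABKO (adjusted p = 0.000115), and neither 72 h comparison was called (-0.13 and -0.09, adjusted p = 0.108 and 0.272). The timing depended on the scaling. With median-ratio scaling both 72 h comparisons were called (-0.23 and -0.21, adjusted p = 0.0305 and 0.0404), beside -0.26 from 72 h to 144 h in KH, and with ES marker scaling KH changed by -0.69 up to 72 h and by -0.34 after it. The call between 72 h and 144 h in KH was lost without 72 h replicate 1 (-0.30, adjusted p = 0.0582) and without 144 h replicate 1 (-0.29, adjusted p = 0.0579).

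Ehmt1, which encodes the GLP partner, was called in DNMT3ABKO and not in KH. In KH it was at 35.6 and 40.9 TPM, then at 43.4 and 42.2 TPM, then at 39.7 and 38.0 TPM, with no call. In DNMT3ABKO it was at 32.6 and 35.3 TPM, then at 42.5 and 42.4 TPM, then at 27.2 and 28.6 TPM, so the 144 h libraries were the lowest of all 12. DNMT3ABKO cells gained 0.32 on the log2 scale at 72 h (adjusted p = 0.00684) and lost 0.59 between 72 h and 144 h (log2 fold change -0.59, adjusted p = 0.000417). The net difference at 144 h was -0.27 (adjusted p = 0.0139), which was not called without 144 h replicate 1 (-0.24, adjusted p = 0.0852). The difference between the lines in the 144 h response, -0.30 (SE 0.11), had an unadjusted p of 0.0252 in limma and did not pass the adjustment (adjusted p = 0.146).

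Of the ATPases, Morc3 moved most. It was at 61.8 and 72.2 TPM in untreated KH, at 106 and 102 TPM at 72 h and at 107 and 103 TPM at 144 h. In DNMT3ABKO it was at 49.7 and 69.4 TPM, then at 121 and 95.3 TPM, then at 105 and 110.2 TPM. Treated and untreated libraries did not overlap in either line, and the 2 treated times did. The log2 fold changes were 0.63 (SE 0.15, adjusted p = 0.00686) and 0.64 (adjusted p = 0.00537) in KH, and 0.86 at both times in DNMT3ABKO (adjusted p = 0.000913 and 0.000766). The 72 h call in KH was lost without untreated replicate 1 (0.52, adjusted p = 0.056).

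Smchd1 and Hells were called only in DNMT3ABKO. Smchd1 went from 30.3 and 33.5 TPM to 36.8 and 38.6 TPM and then 43.5 and 38.4 TPM in KH, and from 24.1 and 35.0 TPM to 42.7 and 39.0 TPM and then 39.8 and 43.2 TPM in DNMT3ABKO. Hells went from 143 and 147 TPM to 165 and 175 TPM and then 167 and 163 TPM in KH, and from 121 and 149 TPM to 196 and 183 TPM and then 154 and 170.1 TPM in DNMT3ABKO. Both genes were higher in every treated library than in every untreated library of the same line. In DNMT3ABKO Smchd1 gained 0.47 (adjusted p = 0.0185) and 0.50 (adjusted p = 0.014) at 72 h and 144 h, and Hells gained 0.49 (adjusted p = 0.00155) and 0.27 (adjusted p = 0.0328). In KH the values were 0.24 and 0.35 for Smchd1 (adjusted p = 0.209 and 0.0675) and 0.23 and 0.18 for Hells (adjusted p = 0.0682 and 0.129). The difference between lines was not called for either gene (adjusted p from 0.347 to 0.758). Without untreated DNMT3ABKO replicate 1, which had the lowest level of both genes, the Smchd1 values became 0.22 and 0.24 (adjusted p = 0.0972 and 0.0683) and the 144 h value of Hells became 0.12 (adjusted p = 0.195). Smchd1 was also not called at 72 h without 72 h replicate 1 (0.41, adjusted p = 0.103), nor at 144 h without 144 h replicate 2 (0.44, adjusted p = 0.083), and the same held for Hells at 144 h without replicate 2 (0.20, adjusted p = 0.2).

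**Figure D2:**
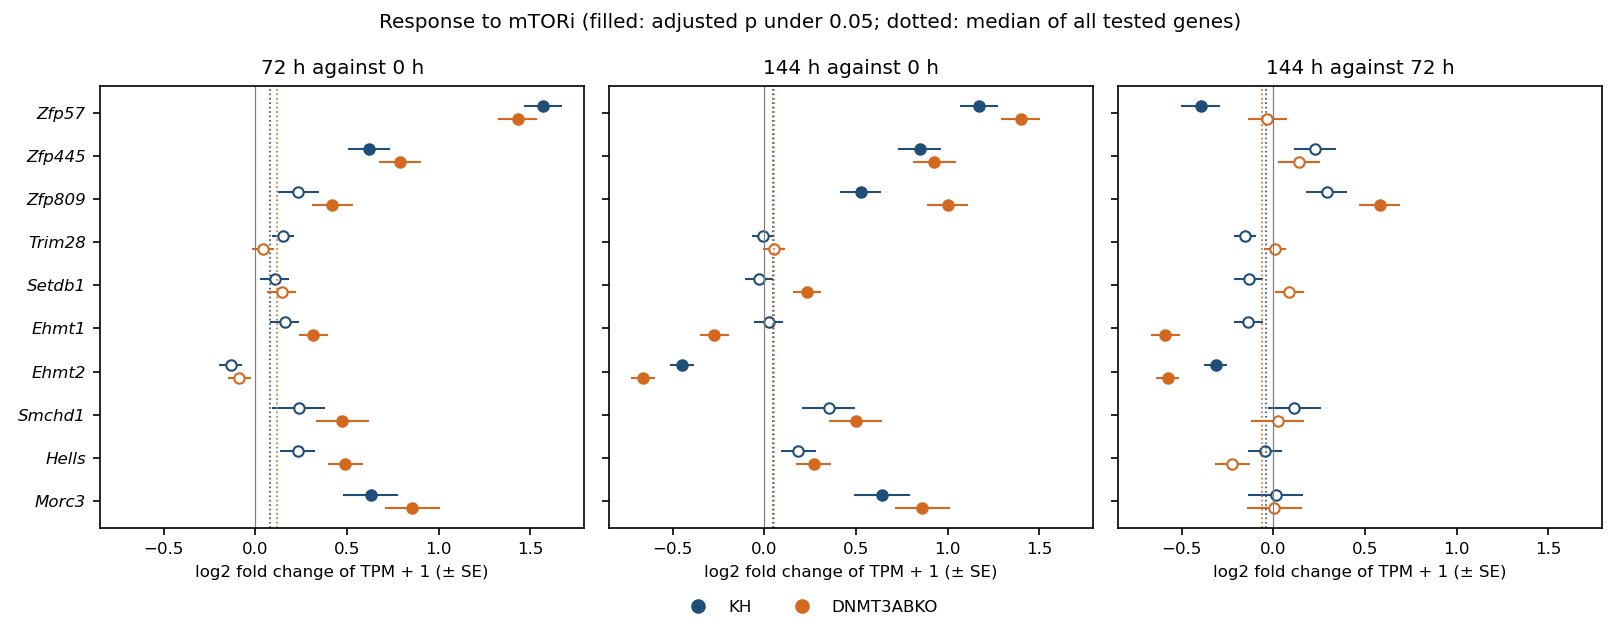
Log2 fold change of TPM + 1 with its standard error (horizontal axes) for each silencing factor, in KH (blue) and DNMT3ABKO (orange). Filled points had an adjusted p under 0.05 and dotted lines mark the median of all 15727 tested genes, between -0.06 and 0.12, so that Zfp57, at 1.17 to 1.57 against untreated cells, stands farthest to the right and Ehmt2 at 144 h farthest to the left in the comparisons with untreated cells.

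On the TPM as deposited, most member calls against untreated cells were gains, a majority that turned under the ES marker scaling. With that scaling 1 member was called higher and 6 lower at 72 h in KH, 1 and 5 at 144 h, 1 and 4 at 72 h in DNMT3ABKO, and 3 and 5 at 144 h. The counts that follow are for the TPM as deposited. At 72 h in KH 3 of the 10 members were called, all higher (Zfp57, Zfp445 and Morc3), where 47.8% of all tested genes were called in either direction and 28.3% were called higher. At 144 h in KH 4 were higher and 1 lower, against 51.3% of all genes called, 27.4% higher and 23.9% lower. In DNMT3ABKO 7 were called at 72 h, all higher, against 56.0% of all genes in either direction and 34.3% higher, and at 144 h 7 were higher and 2 lower, against 57.6%, with 31.4% higher and 26.2% lower. From 72 h to 144 h KH had 2 lower members (22.9% of all genes called, 7.24% higher and 15.6% lower) and DNMT3ABKO had 1 higher and 2 lower (27.3% of all genes called, 8.81% higher and 18.5% lower). In this fit the share of members called was below that of all genes at 72 h in KH and close to it at 144 h. It was above it in DNMT3ABKO, a difference that rests on few genes. With only the groups compared, 4 and 5 members were called in DNMT3ABKO at 72 h and 144 h, against 37.7% and 41.8% of all genes. The median member changed by 0.23 at 72 h and 0.27 at 144 h in KH, against 0.08 and 0.05 for all genes, and by 0.45 and 0.38 in DNMT3ABKO, against 0.12 and 0.05. With 2 libraries a group, groups that did not overlap were common. Against untreated cells this held for 10 members at 72 h and 7 at 144 h in KH (77.0% and 77.7% of all genes) and for 8 and 9 in DNMT3ABKO (73.5% and 73.8%). From 72 h to 144 h it held for 7 members in KH (70.3%) and 6 in DNMT3ABKO (70.6%).

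The gains stand beside the fall of the fibroblast markers and the rise of the ES cell markers given above. When each library was rescaled to its 12 ES cell markers, an alternative added after the values had been seen, the median of all genes moved to -0.41 at 72 h and -0.47 at 144 h in KH and to -0.36 and -0.49 in DNMT3ABKO. This scaling takes the marker sum as constant, although the single markers changed by different amounts, and that assumption was not tested. Zfp57 was still called higher, by 1.01 and 0.58 in KH (adjusted p = 1.52e-05 and 0.000456) and by 0.90 and 0.78 in DNMT3ABKO (adjusted p = 2.84e-05 and 5.3e-05). Ehmt2 was lower in all 4 comparisons, by -0.69 and -1.04 in KH and by -0.62 and -1.27 in DNMT3ABKO. Zfp445 and Zfp809 were called higher only at 144 h in DNMT3ABKO (0.32 and 0.39, adjusted p = 0.0237 and 0.0046), and Zfp809 was called lower at 72 h in KH (-0.32, adjusted p = 0.016). Morc3 was not called in any (0.06 to 0.33). Trim28, Setdb1 and Ehmt1 were called lower in all 4, and Hells in 3, all but 72 h in DNMT3ABKO. Trim28 in KH was at -0.41 at 72 h and -0.60 at 144 h under this scaling, beside the medians of -0.41 and -0.47. Scaling by the median ratio over all genes turned no called member and added calls, among them those of Ehmt2 at 72 h given above.

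**Figure D3:**
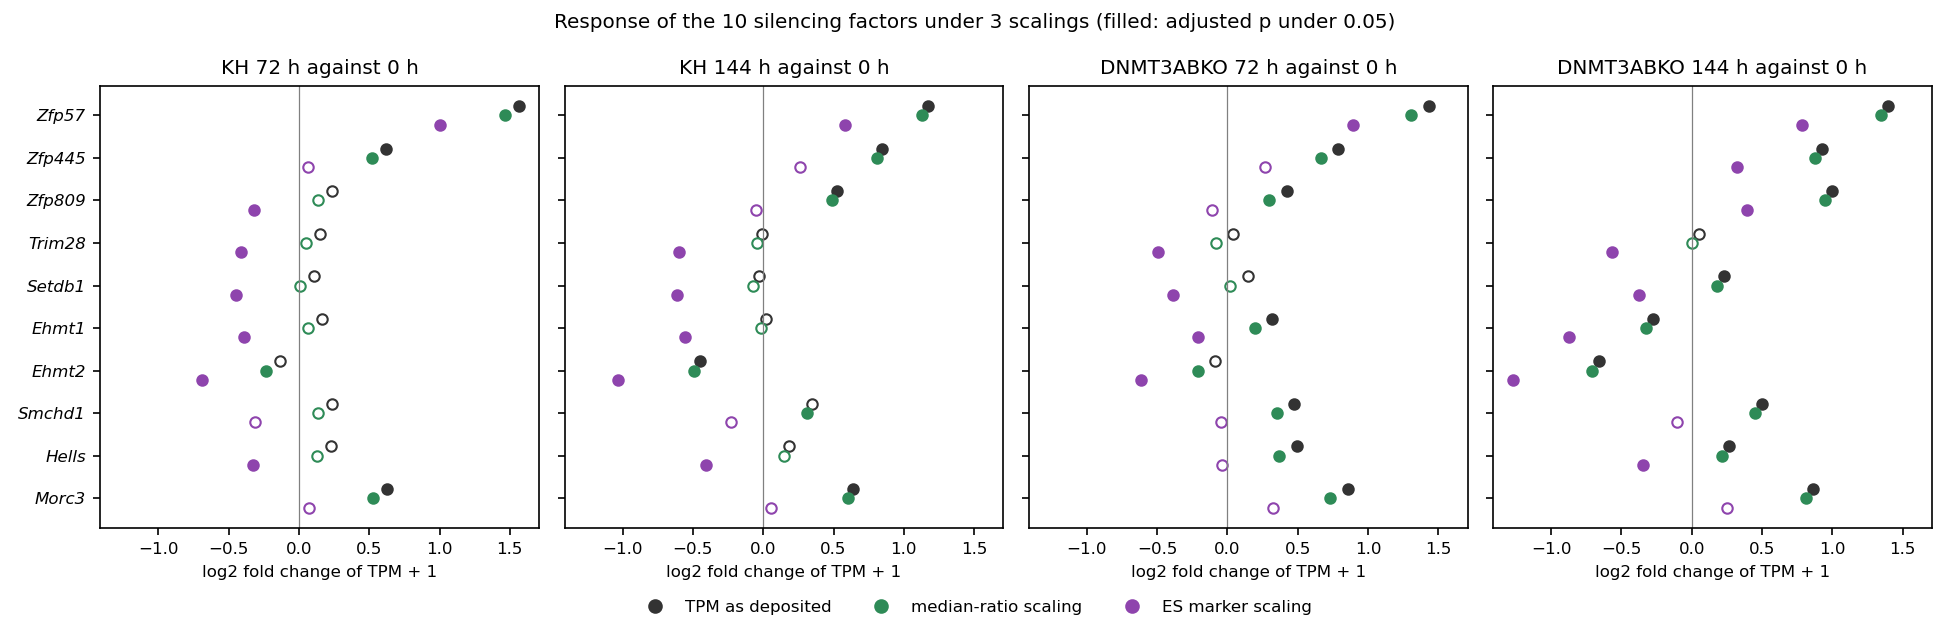
Log2 fold change against untreated cells (horizontal axes) of each silencing factor under the TPM as deposited (black), after median-ratio scaling (green) and after scaling to 12 ES cell markers (purple), with filled points at an adjusted p under 0.05. Zfp57 stays to the right of 0 under all 3, with its lowest value at 0.58, and Ehmt2 stays to the left, while Trim28, Setdb1, Ehmt1, Smchd1 and Hells lie below 0 in all 4 comparisons under the ES marker scaling.

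The comparison of the lines at each time asked which factors differed without de novo methyltransferases. Zfp809 was the only member called at 0 h (9.06% of all genes called, 4.92% higher and 4.14% lower) and at 72 h (19.3%, with 9.26% higher). Its mean in DNMT3ABKO was 136% of that in KH at 0 h (log2 fold change 0.44, SE 0.11, adjusted p = 0.0382), 155% at 72 h (0.62, adjusted p = 0.00382) and 190% at 144 h (0.91, adjusted p = 0.000259), and averaged over the times the difference was 0.66 (SE 0.06, adjusted p = 3.68e-05). The 0 h call was weak. It was lost without any of 10 of the 12 libraries, at adjusted p from 0.0606 to 0.179, the last without untreated KH replicate 1 (0.30), and with the value at 0.28 without untreated DNMT3ABKO replicate 2. It was also lost with only the untreated groups in the fit (adjusted p = 0.363). With the replicate number as a block it was not called either (0.43, adjusted p = 0.112), although that fit compares the lines at replicate 1 only. At 144 h Ehmt1 and Ehmt2 were called lower, at 71.9% (-0.46, adjusted p = 0.00215) and 78.7% (-0.34, adjusted p = 0.00354) of their KH means, where 26.5% of all genes were called, 11.0% higher and 15.5% lower. Averaged over the times, 4 members were called, Zfp809 higher and Ehmt1 (-0.21, adjusted p = 0.005), Ehmt2 (-0.18, adjusted p = 0.0036) and Zfp445 (-0.21, adjusted p = 0.0295) lower, beside 37.5% of all genes, 14.2% higher and 23.3% lower. With the replicate number as a block, Zfp809 was still called, and Ehmt1, Ehmt2 and Zfp445 were not (adjusted p = 0.0591, 0.0746 and 0.0512). Because that fit sets the lines against each other at replicate 1, the lost calls do not show a dependence on the replicate number. The Zfp445 call was lost without any of 9 of the 12 libraries, those being all KH libraries, both DNMT3ABKO libraries at 72 h and the first at 144 h, with values from -0.22 to -0.20 and adjusted p from 0.0523 to 0.0775.

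**Figure D4:**
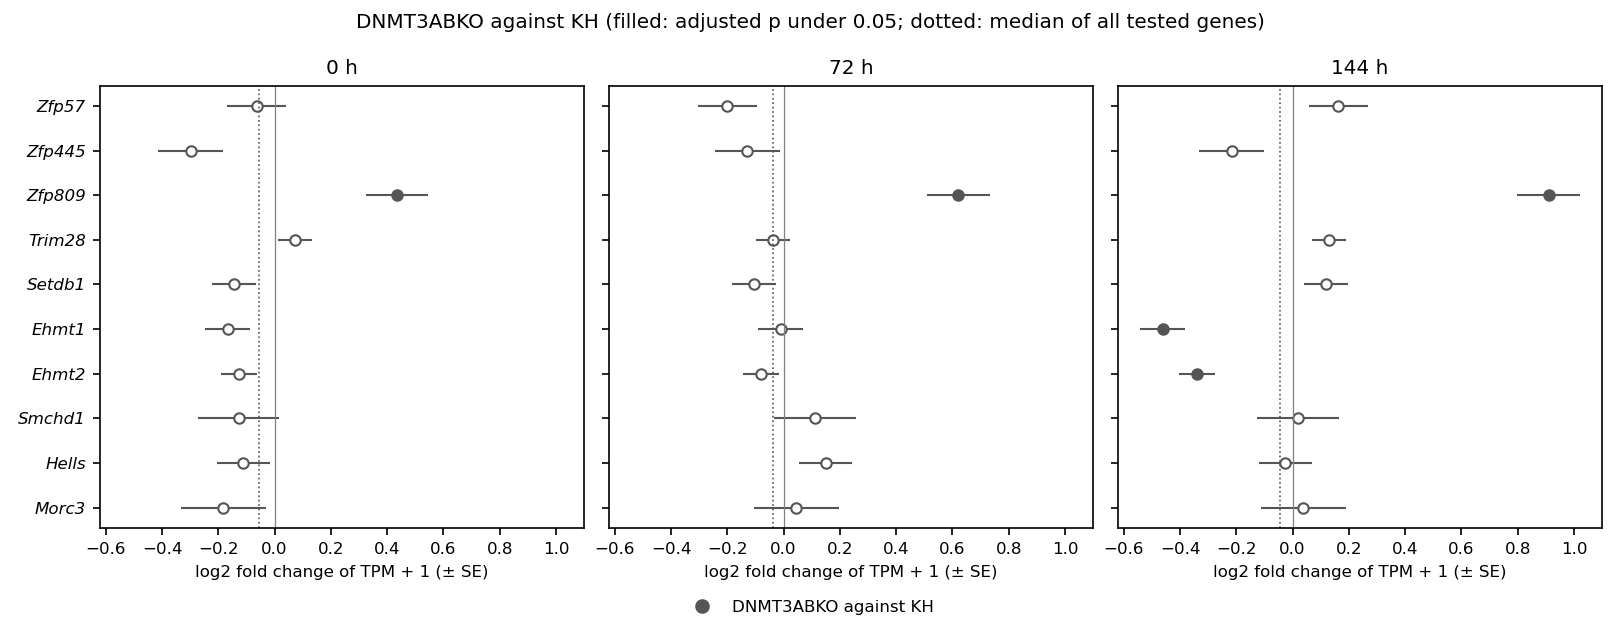
Log2 fold change of DNMT3ABKO against KH with its standard error (horizontal axes) at 0 h, 72 h and 144 h, with filled points at an adjusted p under 0.05 and a dotted line at the median of all tested genes. Zfp809 lies at 0.44, 0.62 and 0.91, and Ehmt1 and Ehmt2 lie at -0.46 and -0.34 at 144 h.

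Libraries of the lines did not overlap for 6 members at 0 h (41.4% of all genes), 6 at 72 h (70.1%) and 7 at 144 h (70.7%). For the members other than Zfp809, Zfp445, Ehmt1 and Ehmt2 a difference between the lines was not shown, with intervals that leave room for modest ones. The averaged difference was -0.03 for Zfp57 (95% interval -0.17 to 0.10), 0.06 for Trim28 (-0.02 to 0.13), -0.04 for Setdb1 (-0.14 to 0.06), 0.00 for Smchd1 (-0.19 to 0.19), 0.00 for Hells (-0.12 to 0.13) and -0.03 for Morc3 (-0.23 to 0.16). The difference between the lines in the response to mTORi was called for 0 of the 10 members at 72 h (5.23% of all genes called, 3.38% higher and 1.86% lower) and for 0 at 144 h (8.59%, with 4.89% higher and 3.70% lower) in limma. At an unadjusted limma p under 0.05 the counts were 0 at 72 h and 4 at 144 h, where 2856 and 3622 of the 15727 tested genes reached it. Those 4 were Zfp809 (0.47, SE 0.16, adjusted p = 0.0997), Ehmt1, Setdb1 (0.26, adjusted p = 0.189) and Ehmt2 (-0.21, adjusted p = 0.19). After median-ratio scaling Zfp809 (0.46, adjusted p = 0.0148) and Ehmt1 (-0.31, adjusted p = 0.0322) were called at 144 h. Without untreated DNMT3ABKO replicate 2 the counts rose to 3 at 72 h and 4 at 144 h, and the shares of all genes called rose as well, to 17.8% and 22.9%.

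Ratios within a library do not depend on its scaling. In KH the ratio of Zfp57 to its corepressor Trim28 was 0.137 and 0.147 before treatment, 0.372 and 0.390 at 72 h and 0.314 and 0.330 at 144 h. In DNMT3ABKO it was 0.112 and 0.149, then 0.343 and 0.336, then 0.309 and 0.352. Zfp57 therefore rose relative to Trim28 in each treated library of either line, above all 4 untreated libraries. The ratio of Zfp57 to Zfp445 was 3.89 and 4.18 in untreated KH, 7.80 and 7.69 at 72 h and 4.74 and 5.30 at 144 h, so the 2 imprint readers moved by different amounts, most at 72 h. Zfp809 over Trim28 reached 0.0754 and 0.0822 in DNMT3ABKO at 144 h against 0.0467 and 0.0442 in KH. The ratio of Ehmt2 to Ehmt1 fell in KH from 2.51 and 2.27 to 1.65 and 1.78 at 144 h, and in DNMT3ABKO from 2.60 and 2.33 to 1.94 and 1.81. All 8 treated libraries lay below all 4 untreated ones in this ratio.

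**Figure D5:**
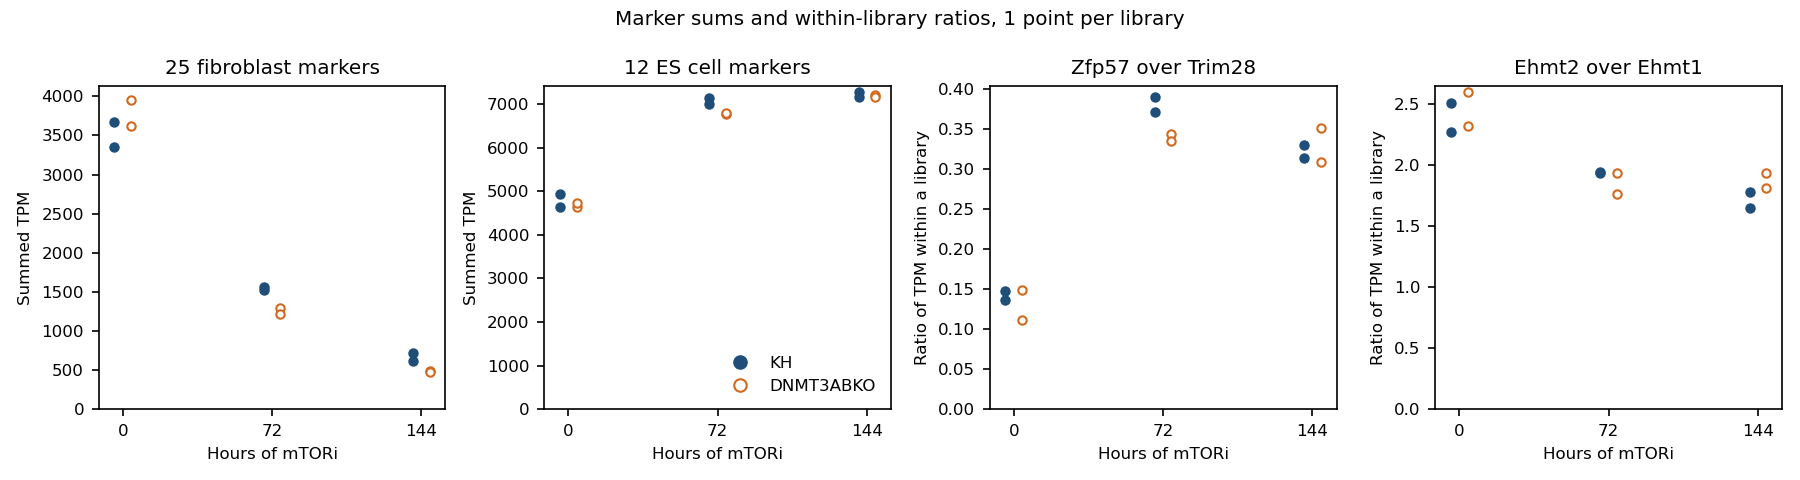
Summed TPM of 25 fibroblast markers and 12 ES cell markers (left panels) and the TPM ratios Zfp57 over Trim28 and Ehmt2 over Ehmt1 within each library (right panels) against hours of mTORi, 1 point per library (filled KH, open DNMT3ABKO). The fibroblast sum falls from at least 3355 to at most 713 TPM, the Zfp57 ratio rises from at most 0.149 to at least 0.309, and the Ehmt2 ratio falls from at least 2.27 to at most 1.94.

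Around the members, 43 further genes of the same silencing systems had been listed, of which 41 could be tested, Morc2b and Zfp92 being under the filter. At 72 h in KH 18 were called higher and 4 lower, then 21 higher and 6 lower after 144 h, and the DNMT3ABKO counts were 22 and 4, followed by 19 and 8. Of all tested genes 28.3% were called higher and 19.5% lower at 72 h in KH and 27.4% and 23.9% at 144 h, and in DNMT3ABKO the shares were 34.3% and 21.6%, then 31.4% and 26.2%. The median of the 41 genes was 0.30 and 0.29 in KH and 0.24 and 0.27 in DNMT3ABKO. H3K9 demethylases, which remove the mark that the members place, had 4 of 5 genes called higher at both times in KH. This count is for the TPM as deposited. Under the ES marker scaling Kdm4c was not called at 72 h in KH (0.24, adjusted p = 0.0638). Kdm3a was called there (0.27, adjusted p = 0.041), and the others were not read. Kdm3a gained 0.83 at 72 h (adjusted p = 0.000267) and 1.03 at 144 h (adjusted p = 4.89e-05) in KH and 0.99 at 144 h in DNMT3ABKO (adjusted p = 4.41e-05), while Kdm4a was called lower in DNMT3ABKO (-0.30 at 72 h and -0.49 at 144 h) and, at 144 h, in KH (-0.24, adjusted p = 0.0273). Of the HUSH subunit genes, Fam208a (Tasor) gained 0.73 at 72 h in KH (adjusted p = 0.00151) and 0.97 in DNMT3ABKO (adjusted p = 0.000188). Pphln1 (periphilin) fell by 0.77 at 72 h in KH (adjusted p = 0.00421). In DNMT3ABKO no HUSH gene was called lower at 72 h, and Pphln1 was called lower at 144 h (-0.53, adjusted p = 0.0214). Of the HP1 genes, readers of H3K9 methylation, Cbx3 was lower at 72 h in both lines (-0.44 and -0.37, adjusted p = 0.00716 and 0.0151). Cbx5, named after its values were seen, was higher there on the TPM as deposited (0.50 and 0.78, adjusted p = 0.00521 and 0.000277). Its value under the ES marker scaling was not read. That scaling took the 72 h gains of Zfp445, 0.62 in KH and 0.79 in DNMT3ABKO, to 0.07 and 0.26, neither called. The Cbx5 gains were no larger, so they are not shown to hold under it. Resf1, a SETDB1 partner, gained 0.95 at 72 h and 1.20 at 144 h in DNMT3ABKO (adjusted p = 0.00121 and 0.000224). The KRAB zinc finger gene Zfp568 gained 0.84 at 144 h in KH (adjusted p = 3.11e-06). Under the ES marker scaling, which was read for these genes only in the comparisons that named them, the direction against untreated cells held in those comparisons, but Fam208a was called only at 72 h in DNMT3ABKO (0.44, adjusted p = 0.0145) and Resf1 only at 144 h (0.59, adjusted p = 0.0104).

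Between the lines, 1 of the 41 genes was called higher and 1 lower before treatment. After 72 h the counts were 4 and 4, and after 144 h they were 4 and 10. The shares of all tested genes called in either direction were 9.06%, 19.3% and 26.5%. Suv39h1, an H3K9 methyltransferase of pericentric heterochromatin, was lower in DNMT3ABKO at each time, by -0.54, -0.57 and -0.65 (adjusted p = 0.00343, 0.00121 and 0.000413). Morc1, a germline relative of Morc3, was higher at each time, by 0.40, 0.61 and 0.67 (adjusted p = 0.0287, 0.00185 and 0.000736). Cdca7, which encodes the activator of the HELLS remodeler, was lower at 72 h (-0.29, adjusted p = 0.0169) and at 144 h (-0.82, adjusted p = 1.73e-05), although Hells itself was not called in any comparison of the lines. Dnmt3l, the cofactor of the enzymes removed in DNMT3ABKO, was at 237 and 251 TPM in untreated KH and 236 and 238 TPM in untreated DNMT3ABKO, then at 442 and 429 TPM against 662 and 658 TPM at 72 h. At 144 h H3f3b, which encodes histone H3.3, was higher in DNMT3ABKO by 0.49 (adjusted p = 0.000285). Beside these, 14 germline genes that ES cells silence summed to between 33.4 and 77.6 TPM over the KH libraries and to between 97.9 and 300.3 TPM over the DNMT3ABKO libraries. Of these, 12 were tested, and averaged over the times 10 were called higher and 2 lower in DNMT3ABKO. The shares of all tested genes were 14.2% higher and 23.3% lower. The 11 markers of 2-cell-like cells summed to at most 7.36 TPM in KH and to between 619 and 652 TPM in DNMT3ABKO at 144 h. The sums of 15 DNA replication genes lay between 2403 and 2811 TPM in all 12 libraries. Against untreated cells, 10 of the 15 were called lower and 3 higher in DNMT3ABKO at 72 h, and 10 and 2 at 144 h. In KH 5 were lower and 4 higher at 72 h, and 2 and 5 at 144 h. Of all tested genes, 21.6% and 26.2% were called lower in DNMT3ABKO and 19.5% and 23.9% in KH. The shares called higher were 34.3% and 31.4% in DNMT3ABKO and 28.3% and 27.4% in KH.

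For the 3 members whose group means ranged over 2-fold, the tested genes most like them were found by Pearson's r of log2(TPM + 1) over the 12 libraries, among 2708 genes with enough expression and range. The libraries share their groups, so these values describe likeness across 6 conditions only. For Zfp57 they were Gps2 (r = 0.995), Nemp1 (0.991) and Usp11 (0.991), for Zfp445 Lrig2 (0.992), Pgap1 (0.988) and Klf5 (0.985), and for Zfp809 Adrb3 (0.961), Myo1f (0.960) and Apod (0.952). Usp11, for example, went from a mean of 14.5 TPM in untreated KH to 44.8 TPM at 72 h and 37.6 TPM at 144 h. Myo1f, like Zfp809, was highest in DNMT3ABKO at 144 h, with a mean of 27.9 TPM against 11.2 TPM in KH.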

How the data were processed

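Total RNA of 12 libraries was sequenced after ribosomal RNA removal. The authors trimmed reads with cutadapt 2.4, aligned them to mm10 with STAR 2.7.3a and deposited TPM values per gene from StringTie 2.0 (versions from the submitters' processing notes). Deposited TPM sums to 1000000 in each library, so read depth is unknown and no count model was used. Spike-in RNA had no rows, so changes in total RNA per cell could not be read.

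Groups came from the labels. Of 54446 genes, the 15727 that averaged 1 TPM or more were tested on log2(TPM + 1), which understates the change of low genes, with limma 3.58.1 in R 4.3.3, using 6 group coefficients, 12 contrasts and a trended prior, with a Benjamini-Hochberg adjusted p under 0.05. The members and lists were chosen with earlier results of these data known. All 10 members were named in each comparison. Of the wider lists, at most the 4 highest and 4 lowest called genes per comparison were eligible, where both libraries of a group lay beyond both of the other. Tested on simulated data for KH at 72 h against 0 h, 15727 genes with 200 changed by 1 on the log2 scale gave 169 recovered (84.5%). The simulation gave all groups the same spread. Recovery of smaller changes, or with the wider spread of untreated DNMT3ABKO cells, was not tested.

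The results were recomputed with 0.1 TPM as the pseudocount, without the filter (37364 genes), with median-ratio scaling, with only the groups compared, with a replicate block and without each library in turn. Scaling to ES cell markers was added after the data were seen. Tables and plots were made with matplotlib 3.10.9, pandas 2.3.3 and NumPy 2.4.6 under Python 3.11.15.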

Additional observations from a re-analysis of the deposited data

Results flagged for a closer look

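No member met a rule for a closer look. Of the wider silencing genes, 5 differed between the lines in their response to mTORi by the test of the difference itself (limma, Benjamini-Hochberg over 15727 genes), a difference taken as the DNMT3ABKO response minus the KH response on the log2(TPM + 1) scale.

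Dnmt3l differed at 72 h by 0.64 (adjusted p = 0.00133) and at 144 h by 0.40 (adjusted p = 0.0106), with 662 and 658 TPM in DNMT3ABKO against 442 and 429 TPM in KH at 72 h. H3f3b differed at 144 h by 0.48 (adjusted p = 0.00719), with 612 and 628 TPM in DNMT3ABKO against 442 and 441 TPM in KH. Cdca7 differed at 144 h by -0.58 (adjusted p = 0.00543), with 74.1 and 75.7 TPM against 131 and 135 TPM. Chaf1b, a subunit of a histone chaperone that works with SETDB1, differed at 144 h by -0.45 (adjusted p = 0.0169), with 61.1 and 60.7 TPM against 74.0 and 77.4 TPM. Zfp568 differed at 144 h by -0.35 (adjusted p = 0.0331).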

How the results depend on the processing

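Of the 38 member calls, 27 were kept without any 1 library. Under the ES marker scaling, added after seeing the data, 18 member values changed sign and were called under at least 1 of the scalings. In KH at 72 h these were Zfp809 (-0.32), Trim28 (-0.41), Setdb1 (-0.45), Ehmt1 (-0.39) and Hells (-0.33), and at 144 h Zfp809 (-0.0537), Ehmt1 (-0.56) and Hells (-0.40). In DNMT3ABKO at 72 h they were Zfp809 (-0.11), Trim28 (-0.49), Setdb1 (-0.38), Ehmt1 (-0.21), Smchd1 (-0.0467) and Hells (-0.0420), and at 144 h Trim28 (-0.57), Setdb1 (-0.38), Smchd1 (-0.10) and Hells (-0.35).

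The number of members called moved by over 1.5 times as follows, and the cause was not tested. For KH at 72 h 3 became 7 under ES marker scaling. From 72 h to 144 h in KH 2 became 1 with no filter, 4 with median-ratio scaling and 5 with only the groups compared. With only the groups compared, DNMT3ABKO gave 4 at 72 h and 5 at 144 h. Between the lines at 0 h 1 became 0 with no filter, with only those groups and with the block, which compares the lines at replicate 1. At 72 h 1 became 2 and at 144 h 3 became 5, each with median-ratio scaling and with only those groups. The difference in the 144 h response had 2 with median-ratio scaling and 1 with ES marker scaling. Leaving out 1 library gave 2 to 7 for KH at 72 h, 0 to 5 from 72 h to 144 h in KH, 5 to 8 and 6 to 9 in DNMT3ABKO at 72 h and 144 h, 0 to 5, 1 to 2 and 3 to 4 between the lines at 0 h, 72 h and 144 h, 0 to 3 for the difference in the 72 h response and 0 to 4 for that at 144 h. The highest counts for both differences came without untreated DNMT3ABKO replicate 2.

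The study describes the time points of a replicate as handled side by side, so a shared number may mark a batch. Deviations of libraries sharing a number correlated weakly (r from -0.104 to 0.0996), which does not settle whether the numbers pair the samples. With the replicate block the calls between the lines were lost for Zfp809 at 0 h (0.43, adjusted p = 0.112) and, averaged over the times, for Zfp445, Ehmt1 and Ehmt2, leaving 1 of 4. The block was entered as an offset of replicate 2 in each line, so these comparisons of the lines hold for replicate 1 and not for the group means. They cannot show whether the calls depend on the replicate number. The alternative with only the groups compared was not run for the average over times.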
